A study of Mus musculus with 6 samples.

Results

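The 43 genes described here encode antioxidant defences and the phagocyte NADPH oxidase, which produces oxidants. They were taken by symbol from a written list: the transcription factor NRF2 and its regulators, the enzymes of quinone, haem and carbonyl reduction, the glutathione, thioredoxin and peroxiredoxin systems, superoxide dismutases and catalase, subunits of the oxidase, and metallothioneins. All 43 were among the 23935 gene symbols of the deposited tables, and 42 passed the filter on low counts that left 16516 genes for testing. Mt2 was the gene that did not pass.

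RNA was measured in bone marrow-derived macrophages (BMDMs) of 3 PKM2ΔMAC and 3 PKM2FL/FL mice, with 1 library per mouse. PKM2 is the M2 isoform of pyruvate kinase, the last enzyme of glycolysis. Both genotypes carried the floxed PKM2 allele, and the PKM2ΔMAC mice also carried LysM-Cre, a Cre recombinase inserted in the lysozyme gene Lyz2 and active in cells of the myeloid lineage. PKM2FL/FL littermates without Cre were the controls, so the deletion and the Cre insertion cannot be told apart. Bone marrow cells of both genotypes were differentiated in M-CSF for 7 days, and both carry the label of a 16 h priming with LPS, a bacterial outer membrane component (10 ng/mL), together with the cytokine IFN-γ (25 ng/mL). Neither the labels nor the methods give the age of the mice the marrow came from. The question addressed for these genes was whether their RNA levels differed between the genotypes after priming.

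NRF2, encoded by Nfe2l2, is held in the cytoplasm and passed on for degradation by KEAP1. When electrophiles or oxidants modify KEAP1, NRF2 accumulates, binds antioxidant response elements together with small MAF proteins and induces genes for glutathione synthesis, thioredoxin reduction and detoxification, while BACH1 represses some of the same genes. In phagocytes the oxidase built on CYBB and CYBA makes superoxide, which superoxide dismutases turn into hydrogen peroxide and which catalase, glutathione peroxidases and peroxiredoxins then remove.

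The core of the antioxidant response element, TGACNNNGC, was searched on both strands in promoter windows from 250 bases before to 50 bases after the start of each RefSeq gene model (GRCm38.p6). Windows were matched for 36 of the 43 genes, some of which have more than 1. Hmox1, Gclc, Gsr, Gsta4, Prdx6, Sod3 and Ncf4 had no window and were not searched. Sequence outside the windows was not searched for any gene. The core was present in a window of 9 of the 36 genes (25.0%), namely Nfe2l2, Blvra, Gclm, Mgst1, Txnrd1, Srxn1, Prdx1, Sod1 and Mt2, and in a window of 14.0% of the 27025 genes searched. A match is a run of letters and not a measured binding site. The following matches of 6 tested genes are shown as examples, from glutathione synthesis (Gclm), the thioredoxin and peroxiredoxin system (Txnrd1, Srxn1 and Prdx1), the dismutases (Sod1) and haem breakdown (Blvra). In counts scaled to the library's total, the genotypes overlapped for the first 5 and not for Blvra, where 17.2% of all genes tested did not overlap. Each is read 5′ to 3′ on the strand that holds the core, with the core in capitals.
Gclm: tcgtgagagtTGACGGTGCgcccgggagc
Txnrd1: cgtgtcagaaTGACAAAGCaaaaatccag
Srxn1: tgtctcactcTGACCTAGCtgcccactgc
Prdx1: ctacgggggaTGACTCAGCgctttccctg
Sod1: ggcctgagtcTGACCACGCccaccttggc
Blvra: ggcggagcctTGACCGAGCaattcccgtg

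These stretches lie at chr3:122245413-122245441 (Gclm), chr10:82859104-82859132 (Txnrd1), chr2:152105542-152105570 (Srxn1), chr4:116685456-116685484 (Prdx1), chr16:90220696-90220724 (Sod1) and chr2:127070598-127070626 (Blvra). Counted from the start of the gene model, the lowest plus-strand base of the core was at -134 in Gclm, -92 in Txnrd1, -133 in Prdx1, -56 in Sod1, -49 in Blvra and 29 in Srxn1. All 6 genes are on the plus strand, and in each the core was read on the minus strand. The AP-1 site, TGACTCA or its reverse complement TGAGTCA, was found for 4 of the 36 genes (11.1%), against 5.95% of all genes searched. It overlapped the antioxidant core in 2 of the 9 matched genes, Prdx1 and Mt2.

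The libraries held between 49957449 and 54524651 counts, and 3 counts corresponded to between 0.0546 and 0.0604 CPM, the count scaled to the library's total. Pkm, which encodes PKM2 and the other PKM isoform, stood at 1714, 1698 and 1705 CPM in PKM2FL/FL and at 987, 1212 and 1005 CPM in PKM2ΔMAC libraries. Lyz2, the site of the Cre insertion, was at between 17010 and 18720 CPM in the first and between 24.3 and 31.8 CPM in the second. Both were called. The other 8 macrophage markers, of which Itgam was called (log2 fold change 0.43, adjusted p = 0.00272), summed to between 7137 and 7396 CPM in PKM2FL/FL and between 7149 and 8066 CPM in PKM2ΔMAC libraries. Of 6 genes that LPS and IFN-γ are known to induce, 4 averaged under 1 CPM, among them Nos2 at between 2 and 26 counts and Il12b at between 2 and 6 counts in any library. Acod1 was at 3.39 to 4.27 CPM in PKM2FL/FL and 1.63 to 3.02 CPM in PKM2ΔMAC libraries, and Irf1 was at 53.7 to 56.8 CPM over both. The 6 were looked at after the data had been seen, and the series holds no unprimed culture to set them against. The summed level of 12 neutrophil markers was between 22.9 and 55.5 CPM in PKM2FL/FL and between 97.4 and 184 CPM in PKM2ΔMAC libraries, with 11 of the 12 higher on average in PKM2ΔMAC, 0 called of the 11 tested and none at 0 throughout. The summed level of 6 stromal markers, among them Col1a1, was between 5805 and 6378 CPM in PKM2FL/FL and between 5557 and 7017 CPM in PKM2ΔMAC libraries. Of the 6, 3 were higher on average in PKM2ΔMAC and 0 were called. Pdgfrb was at 127 to 133 CPM and at 148 to 155 CPM, and the genotypes overlapped for the other stromal markers. The part of stromal cells in the levels of the listed genes was not tested. PKM2ΔMAC replicate 2 stood apart from the other libraries: it was the library farthest from the mean of all 6 for 30.9% of the genes tested. Values without it are given beside many of the log2 fold changes.

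Levels of different genes were compared per length, in the deposited TPM, which are scaled to transcript length and library total, averaged over the 6 libraries. Cyba, the small membrane subunit of the oxidase, was the highest at 1337 TPM, followed by Prdx1, a cytosolic peroxiredoxin, at 1229 TPM and Cybb, the catalytic oxidase subunit, at 866 TPM. Catalase (Cat, 734 TPM), the peroxidase Gpx1 (709 TPM) and haem oxygenase Hmox1 (676 TPM) came next. At the low end were Nqo1 at 9.97 TPM, Txnrd3 at 7.22 TPM, Gss at 7.08 TPM, Gsta4 at 2.82 TPM and Mt2 at 0.455 TPM. Thus 23 of the 43 genes were above 100 TPM and 5 were below 10 TPM. In 33 of the 42 neighbouring pairs in this order the ranges of both genes over the libraries overlapped, so the order of close neighbours is not resolved.

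**Figure D1:**
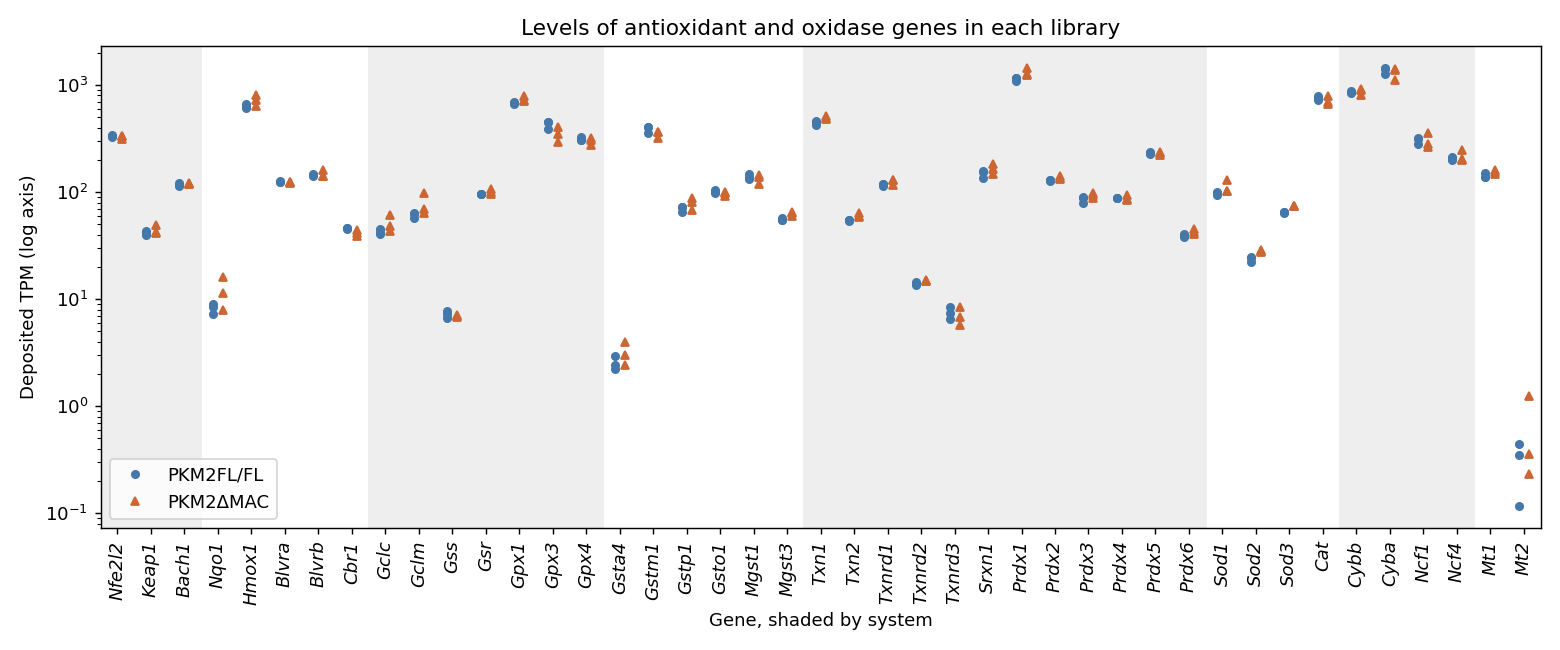
Deposited TPM (log axis) of the 43 genes in each library, with genes grouped by system on the horizontal axis, circles for the 3 PKM2FL/FL and triangles for the 3 PKM2ΔMAC libraries. Levels run from Mt2, at between 0.117 and 1.23 TPM, to Cyba, at between 1106 and 1440 TPM.

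No gene of the list was called different between the genotypes. In edgeR's quasi-likelihood test over all 16516 genes, 0 of the 42 had an adjusted p under 0.05, where 68 genes (0.412%) passed in all. At an unadjusted p under 0.05 there were 8 of the 42 (19.05%), 2 with a higher mean in PKM2ΔMAC (Sod2 and Sod3) and 6 with a lower one (Cbr1, Gsto1, Cat, Blvra, Gpx3 and Gstm1), against 9.83% of all genes tested. DESeq2 called 0 of the 42 and 1.54% of the genes to which it gave an adjusted p. limma-trend on the TPM values also called 0, against 0.281% of the genes it tested. Adjusted p in the edgeR fit lay between 0.334 for Sod2 and 0.962 for Txnrd2.

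The sizes of the differences were small. The median log2 fold change (PKM2ΔMAC against PKM2FL/FL) of the 42 genes was 0.018, against -0.00021 over all genes, with 24 positive and 18 negative values. Single values ran from -0.37 (Gpx3) to 0.44 (Nqo1), and the median size without sign was 0.10, against 0.093 over all genes. The 95% interval of the difference lay within a 2-fold change either way for all 42, within 0.5 on the log2 scale for 37 and within 0.25 for 20. A missed threshold does not show that the levels were equal, and these intervals give the range of differences left by 3 mice per genotype.

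**Figure D2:**
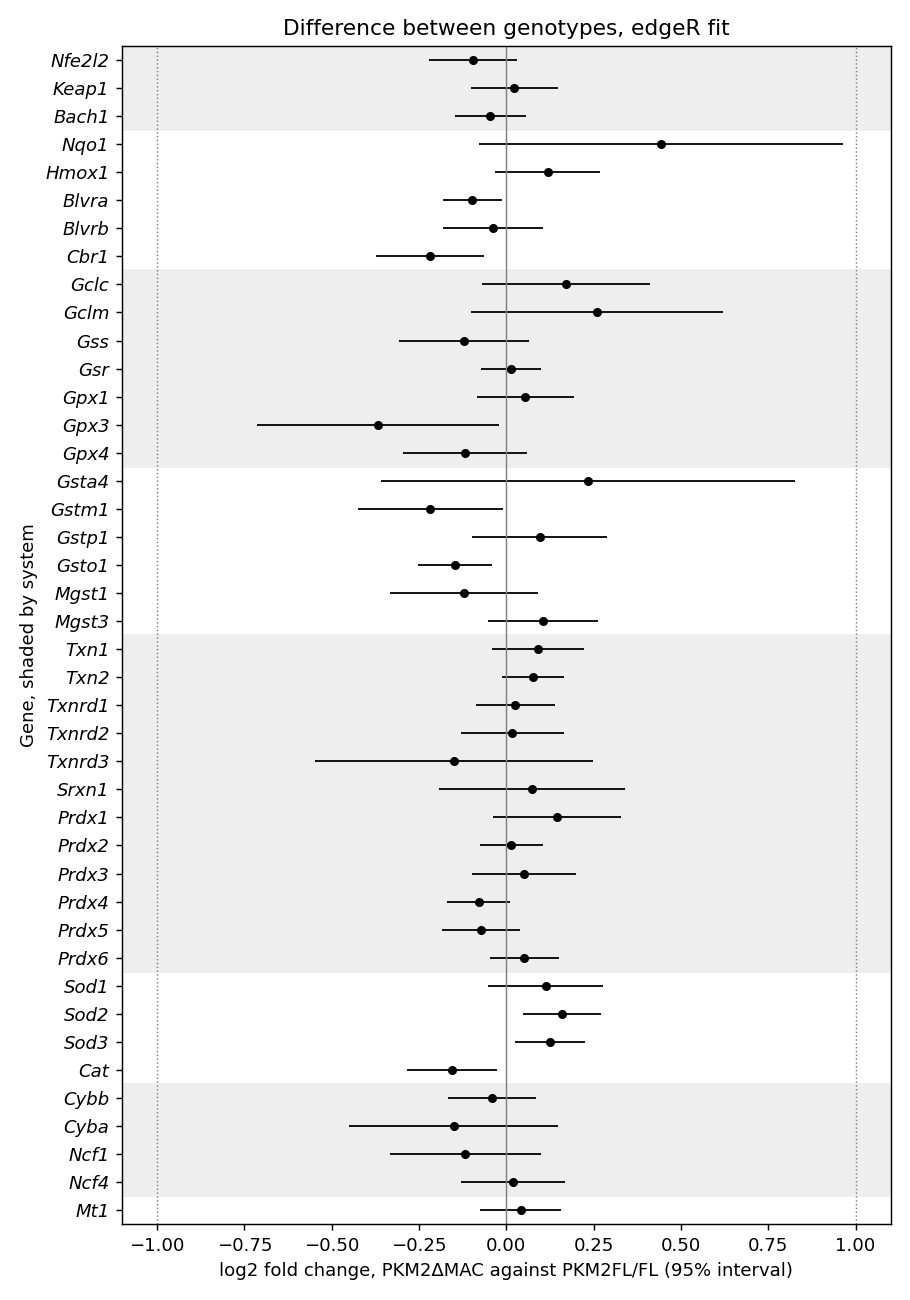
Log2 fold change of each of the 42 tested genes, PKM2ΔMAC against PKM2FL/FL, with its model-based 95% interval, grouped by system on the vertical axis. Nqo1, at 0.44, and Gpx3, at -0.37, lie farthest from 0, and the interval excludes 0 before adjustment for 8 genes.

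The CPM ranges of the genotypes did not overlap for 9 of the 42 genes (21.43%), against 17.2% of all genes tested. Txn2, Sod2 and Sod3 were higher in every PKM2ΔMAC library than in any PKM2FL/FL library, and Blvra, Cbr1, Gpx3, Gsto1, Prdx4 and Cat were lower. For each of the 9 the exact two-sided permutation test over libraries gave 0.1, the smallest p that 3 against 3 allow. In the deposited TPM the genotypes did not overlap for 11 of the 42, against 23% of all genes. There Gpx1, Txn1, Txn2, Txnrd2, Prdx1, Prdx2, Mgst3, Sod1, Sod2 and Sod3 were higher in PKM2ΔMAC, and Cbr1 was lower. Blvra, Gpx3, Gsto1, Prdx4 and Cat overlapped. On that scale the median log2 fold change of all genes was 0.063. Overlap between the genotypes is otherwise given in CPM. Counts in bulk RNA cannot tell fewer cells of a type from less RNA per cell.

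**Figure D3:**
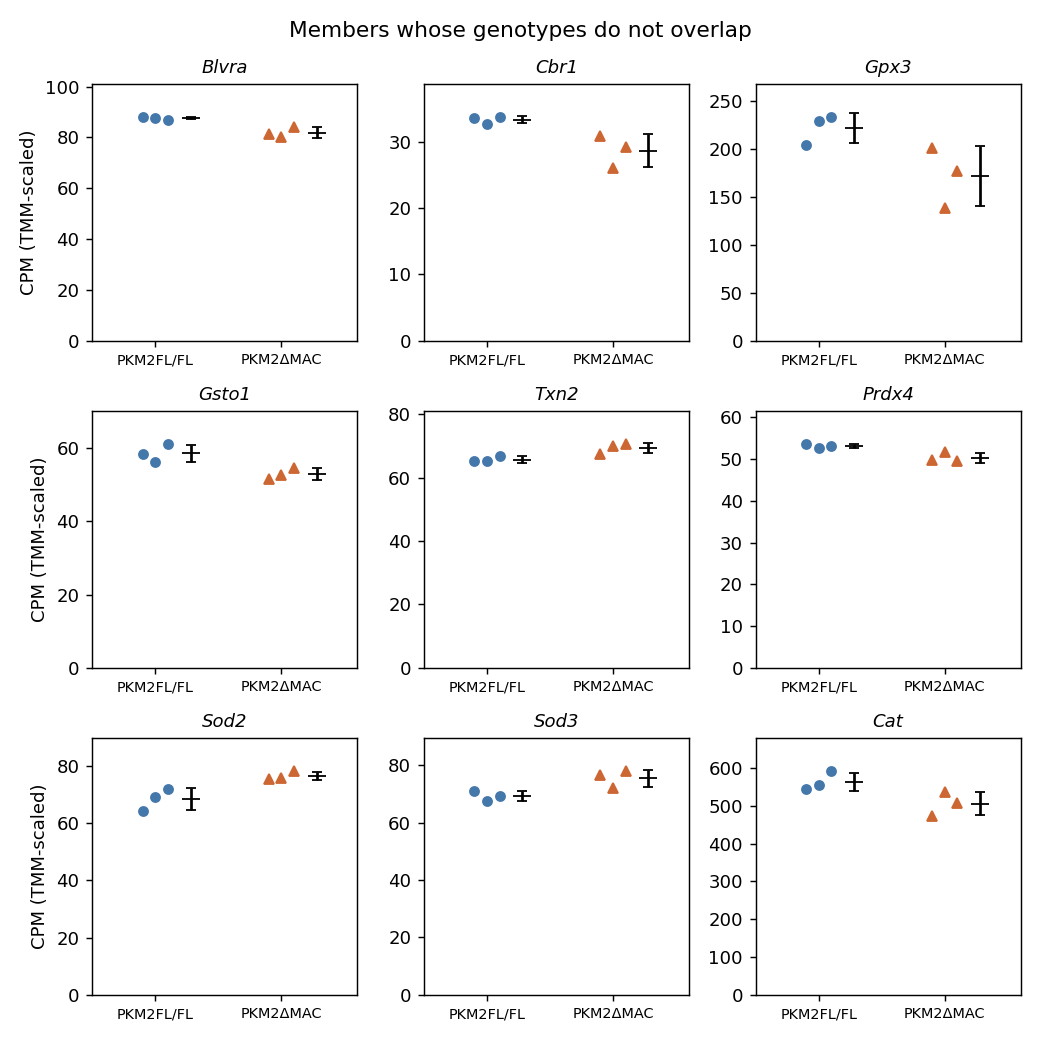
CPM (scaled by TMM factors, linear axis from 0) of the 9 genes whose genotypes did not overlap, with 1 point per library and a bar for the mean and SD of each genotype. The largest relative gap between means is that of Gpx3, 222 against 172 CPM, and that of Prdx4 is narrow, 53.1 against 50.3 CPM.

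Superoxide dismutases and catalase were the system with the most genes without overlap for its size, 3 of 4, where 17.2% of all genes had none and 4 genes are few. Sod2, the mitochondrial dismutase (GRCm38 position, as for all genes here, chr17:13006846-13040063), was at 64.0, 69.0 and 71.7 CPM in PKM2FL/FL and at 75.3, 75.5 and 77.9 CPM in PKM2ΔMAC libraries. Each of the PKM2ΔMAC values was above the highest control. The log2 fold change was 0.16 ± 0.049 (SE, n = 3 mice per genotype, adjusted p = 0.334), with a 95% interval of 0.049 to 0.27. A share of 21.0% of the 50-base words of its transcripts also occurs in transcripts of other genes, so its count may hold reads that cannot be placed with certainty. Sod3, the extracellular dismutase (chr5:52363791-52371418), stood at 71.0, 67.4 and 69.3 CPM against 76.5, 72.2 and 77.8 CPM. Its lowest PKM2ΔMAC value and its highest PKM2FL/FL value were close, and the log2 fold change was 0.13 ± 0.044 (interval 0.025 to 0.23, adjusted p = 0.406). Sod1, the cytosolic copper-zinc enzyme, was at 108, 112 and 113 CPM in the controls and at 113, 135 and 112 CPM in PKM2ΔMAC libraries. Only PKM2ΔMAC replicate 2 lay clearly above the rest for Sod1 (log2 fold change 0.11, adjusted p = 0.661), and without it the log2 fold change was 0.022.

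Cat, the peroxisomal enzyme that splits hydrogen peroxide (chr2:103453849-103485160), differed in the other direction. Its levels were 545, 554 and 591 CPM in PKM2FL/FL and 474, 537 and 507 CPM in PKM2ΔMAC libraries, and the closest values of the genotypes were 545 and 537 CPM. The log2 fold change was -0.15 ± 0.056 with a 95% interval of -0.28 to -0.026 and an adjusted p of 0.416. Without PKM2ΔMAC replicate 2 it was -0.20 with an adjusted p of 0.0594, the lowest for any gene of the list under the alternatives tried. The TPM ratio of the dismutases Sod1 and Sod2 ranged from 3.63 to 4.51 over the 6 libraries.

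Among the regulators, Nfe2l2 was at 363, 348 and 369 CPM in PKM2FL/FL and at 351, 311 and 350 CPM in PKM2ΔMAC libraries. The genotypes overlapped, and the log2 fold change was -0.09 ± 0.055 with an interval of -0.22 to 0.031 (adjusted p = 0.630). Without PKM2ΔMAC replicate 2, the lowest library, it was -0.038. Keap1, whose protein is the sensor and brake of NRF2, ranged from 53.0 to 57.3 CPM and from 53.9 to 60.0 CPM (log2 fold change 0.023 ± 0.055, interval -0.10 to 0.15, adjusted p = 0.932, and -0.025 without PKM2ΔMAC replicate 2). Bach1, the repressor, ranged from 203 to 218 CPM and from 194 to 207 CPM (log2 fold change -0.045, interval -0.15 to 0.056, and -0.065 to -0.014 with 1 library left out). Per length, Nfe2l2 exceeded Keap1 between 6.41- and 8.61-fold in every library. These are RNA levels, and NRF2 is known to be controlled largely through the stability of its protein, which was not measured here.

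Of the 5 genes of quinone, haem and carbonyl reduction, 2 did not overlap between genotypes, against 17.2% of all genes, and 5 genes are few. Both were lower in PKM2ΔMAC. Nqo1, an NADPH-dependent quinone reductase and a standard readout of NRF2 (chr8:107388225-107403206), was at 3.22, 3.93 and 3.74 CPM in PKM2FL/FL and at 3.39, 6.50 and 4.90 CPM in PKM2ΔMAC libraries. The genotypes overlapped through PKM2ΔMAC replicate 1. Its log2 fold change was the largest of the list, 0.44 ± 0.23 (interval -0.077 to 0.96, adjusted p = 0.575), and without PKM2ΔMAC replicate 2 it was 0.19. Hmox1, the inducible enzyme that opens haem to biliverdin, was at 312, 326 and 308 CPM against 307, 369 and 351 CPM. Its lowest value was that of PKM2ΔMAC replicate 1 and its highest that of replicate 2 (log2 fold change 0.12 ± 0.066, interval -0.034 to 0.27, adjusted p = 0.616). The value was 0.062 without replicate 2 and 0.19 without replicate 1.

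Blvra, one of the reductases that turn biliverdin into bilirubin and the gene with the core shown above at -49, stood at 88.0, 87.8 and 87.0 CPM and at 81.4, 80.2 and 84.1 CPM. The controls lay within 1 CPM of each other, and each PKM2ΔMAC library was below them (log2 fold change -0.10 ± 0.037, interval -0.18 to -0.013, adjusted p = 0.438). Blvrb, the other biliverdin reductase gene, ranged from 113 to 116 CPM and from 103 to 123 CPM, so PKM2ΔMAC libraries lay on both sides of the controls. Cbr1, a carbonyl reductase (chr16:93605853-93610505), was at 33.8, 32.8 and 33.8 CPM against 30.9, 26.1 and 29.2 CPM. Its difference was -0.22 ± 0.068 on the log2 scale, with an interval of -0.37 to -0.064 and an adjusted p of 0.342.

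The limiting enzyme of glutathione synthesis, glutamate-cysteine ligase, has a catalytic subunit encoded by Gclc and a modifier subunit encoded by Gclm. Gclc was at 44.3, 48.0 and 45.5 CPM in PKM2FL/FL and at 45.1, 60.2 and 50.01 CPM in PKM2ΔMAC libraries. Gclm, with the core shown above at -134, was at 104, 111 and 116 CPM against 112, 162 and 122 CPM. Both subunits were highest in PKM2ΔMAC replicate 2, and PKM2ΔMAC replicate 1 lay within the controls for both. The log2 fold changes were 0.17 ± 0.10 for Gclc and 0.26 ± 0.15 for Gclm, and without that library they were 0.050 and 0.086. Without PKM2ΔMAC replicate 1 they were 0.26 and 0.37. The TPM ratio of Gclm to Gclc stayed between 1.38 and 1.61 in the 6 libraries. Gss, the second enzyme of the pathway, was low in both genotypes, at 11.2 to 12.8 and 11.1 to 11.3 CPM. Gsr, which regenerates reduced glutathione with NADPH, was among the steadiest genes of the list, at 75.2 to 75.7 CPM against 74.0 to 77.9 CPM (log2 fold change 0.013, interval -0.073 to 0.098, and -0.0033 without PKM2ΔMAC replicate 2).

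Glutathione peroxidases reduce hydrogen peroxide and lipid peroxides with glutathione. Gpx3, the secreted peroxidase (chr11:54902453-54910377), was at 204, 229 and 233 CPM in PKM2FL/FL and at 201, 139 and 177 CPM in PKM2ΔMAC libraries. The ranges were separated by the narrow gap between 204 and 201 CPM, and the PKM2ΔMAC libraries were widely spread. The log2 fold change was -0.37 ± 0.14 (interval -0.71 to -0.021, adjusted p = 0.481), and without PKM2ΔMAC replicate 2 it was -0.23. Gpx1, the abundant cytosolic form, ranged from 268 to 290 CPM and from 268 to 314 CPM (log2 fold change 0.054, and 0.11 without PKM2ΔMAC replicate 2). Gpx4, which acts on phospholipid hydroperoxides in membranes and restrains ferroptosis, ranged from 149 to 162 CPM and from 126 to 155 CPM (log2 fold change -0.12, adjusted p = 0.670, and -0.035 without PKM2ΔMAC replicate 2). Of the 50-base words of Gpx4 transcripts, 34.7% are shared with other genes, mainly the pseudogene Gpx4-ps2.

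Glutathione transferases attach glutathione to electrophiles. Of the 6 listed, Gsto1, an omega-class enzyme (chr19:47854970-47864790), was the one without overlap in CPM, where 17.2% of all genes had none. It was at 58.5, 56.3 and 61.1 CPM in PKM2FL/FL and 51.7, 52.6 and 54.7 CPM in PKM2ΔMAC libraries. All 3 PKM2ΔMAC values were below the lowest control (log2 fold change -0.15 ± 0.047, interval -0.25 to -0.040, adjusted p = 0.355). Gsto1 is among 14 genes of the list that overlap another gene in the annotation, here the antisense gene Cfap43. Gstm1, of the mu class, was at 172, 148 and 172 CPM against 149, 125 and 149 CPM, where control replicate 2 lay within the PKM2ΔMAC values. Its log2 fold change was -0.22 ± 0.088 (interval -0.43 to -0.011, adjusted p = 0.484), and without PKM2ΔMAC replicate 2 it was -0.14. Of its 50-base words, 18.9% occur in other genes. Mgst1, a microsomal form, ranged from 76.7 to 84.6 CPM and from 63.5 to 80.9 CPM, with its low value in PKM2ΔMAC replicate 2. Gstp1 and Mgst3 had log2 fold changes of 0.10 and 0.11 with genotypes overlapping in CPM, which were 0.036 for Gstp1 without PKM2ΔMAC replicate 2 and 0.058 for Mgst3 without replicate 3. Without PKM2ΔMAC replicate 1 the value for Gstp1 was 0.18. Of the words of Gstp1, 33.7% are shared, mainly with Gstp2. Gsta4, near 1 CPM in every library, had the widest interval of the transferases, -0.36 to 0.83.

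The 12 genes of the thioredoxin and peroxiredoxin system gave differences between -0.15 (Txnrd3) and 0.15 (Prdx1), 9 of them positive, where 8245 of the 16516 genes tested were positive. Of the 12, 0 reached an unadjusted p under 0.05, against 9.83% of all genes. The value for Txnrd3, at 4.30 to 6.84 CPM in the 6 libraries, was -0.0058 without PKM2ΔMAC replicate 2. With 1 library left out in turn it ran from -0.32 to -0.0058. Prdx1, whose protein removes peroxides in the cytosol, was at 1023, 928 and 1015 CPM in PKM2FL/FL and at 1063, 992 and 1226 CPM in PKM2ΔMAC libraries. PKM2ΔMAC replicate 3 stood above all others and the remaining values overlapped (log2 fold change 0.15 ± 0.080, interval -0.038 to 0.33, adjusted p = 0.612). Without that library the log2 fold change was 0.055. Srxn1, sulfiredoxin, which repairs over-oxidized peroxiredoxins, ranged from 108 to 128 CPM and from 109 to 142 CPM (log2 fold change 0.074, and -0.021 to 0.17 with 1 library left out). Txnrd1, the cytosolic thioredoxin reductase, was at 246, 229 and 240 CPM against 230, 242 and 256 CPM (log2 fold change 0.026, interval -0.087 to 0.14). Prdx1, Srxn1 and Txnrd1 all hold the antioxidant core shown above. For all 3 the genotypes overlapped in CPM, as they did for most genes tested (17.2% did not overlap).

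Txn2, the mitochondrial thioredoxin, was at 65.1, 65.1 and 66.9 CPM in PKM2FL/FL and at 67.5, 69.9 and 70.5 CPM in PKM2ΔMAC libraries. Prdx4, the peroxiredoxin of the endoplasmic reticulum, was at 53.5, 52.7 and 53.2 CPM against 49.7, 51.6 and 49.5 CPM. Both were without overlap, in opposite directions, by 0.077 ± 0.039 and -0.079 ± 0.040 on the log2 scale (adjusted p = 0.562 and 0.563). They made up 16.67% of the 12 genes of the system, close to the 17.2% of all genes without overlap. The intervals were -0.011 to 0.17 and -0.17 to 0.012. Prdx2, Prdx3, Prdx5 and Prdx6, the remaining peroxiredoxins, had log2 fold changes of 0.015, 0.050, -0.072 and 0.051 with overlapping genotypes, and for Prdx5 the value was -0.025 without PKM2ΔMAC replicate 2. Txn1, the cytosolic thioredoxin, ranged from 125 to 138 CPM and from 132 to 150 CPM. Txnrd2, the mitochondrial reductase, ranged from 16.9 to 18.3 CPM and from 17.4 to 18.1 CPM. Within the families the abundant form was much the higher per length, with TPM ratios of Prdx1 to Prdx2 between 8.60 and 10.6 and of Txnrd1 to Txnrd2 between 7.93 and 8.78.

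The phagocyte oxidase transfers electrons from NADPH to oxygen. Cybb, the flavocytochrome that carries the electrons (chrX:9435252-9487771), was at 1460, 1369 and 1433 CPM in PKM2FL/FL and at 1470, 1364 and 1310 CPM in PKM2ΔMAC libraries. Cyba, its membrane partner, was at 432, 374 and 419 CPM against 394, 301 and 408 CPM, and the low value was again that of PKM2ΔMAC replicate 2. The genotypes overlapped for both genes, with log2 fold changes of -0.041 ± 0.055 (interval -0.17 to 0.085, adjusted p = 0.860) and -0.15 ± 0.12 (interval -0.45 to 0.15, adjusted p = 0.767). Without that library the value for Cyba was -0.024, and with 1 library left out in turn that for Cybb ran from -0.088 to -0.0045. Ncf1, the cytosolic organizer p47phox, was at 300, 334 and 333 CPM against 283, 339 and 269 CPM. Here PKM2ΔMAC replicate 2 was the highest of the 6, the log2 fold change was -0.12 ± 0.092 (interval -0.33 to 0.10, adjusted p = 0.750), and without it -0.22 (adjusted p = 0.0604). With 1 library left out in turn, the value for Ncf1 ran from -0.22 to -0.051. Ncf4, the p40phox subunit, ranged from 114 to 122 CPM and from 113 to 132 CPM (log2 fold change 0.019 ± 0.065, interval -0.13 to 0.17, adjusted p = 0.955). The TPM ratio to Cybb was between 1.23 and 1.74 for Cyba, between 0.305 and 0.394 for Ncf1 and between 0.222 and 0.278 for Ncf4. These oxidase genes are also expressed by neutrophils, whose summed markers differed between the genotypes as given above, and the part of those cells in the oxidase values was not tested.

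Metallothioneins are small cysteine-rich proteins that bind zinc and copper and can take up oxidants. Mt1 (chr8:94179082-94180327) was at 49.6, 48.3 and 53.9 CPM in PKM2FL/FL and at 50.9, 52.0 and 53.2 CPM in PKM2ΔMAC libraries (log2 fold change 0.041 ± 0.051, interval -0.076 to 0.16, adjusted p = 0.849, and 0.0091 to 0.087 with 1 library left out). Mt2, its neighbour at chr8:94172664-94173568, had 4, 3 and 1 counts against 2, 3 and 10 counts, too few for the count filter, and no difference was tested. The antisense gene Gm45774 overlaps Mt2 in the annotation, and whether reads were lost to this overlap was not tested. The core of the metal response element, TGCACNC or TGCGCNC, occurs for 9 of the 36 genes (25.0%), against 28.2% of all genes searched, and both metallothionein genes hold it. The match nearest the start of each is shown because the neighbours share it while their levels differ widely, at 148 and 0.455 TPM.
Mt1: cagggagctcTGCACTCcgcccgaaaa
Mt2: cccctgggccTGCGCACgacccgaatt

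They lie at chr8:94179081-94179107, on the strand of the gene, and at chr8:94172612-94172638, on the opposite strand. The window of Mt2 thus holds the metal core as well as the antioxidant core, in a gene with at most 10 counts in any library.

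**Figure D4:**
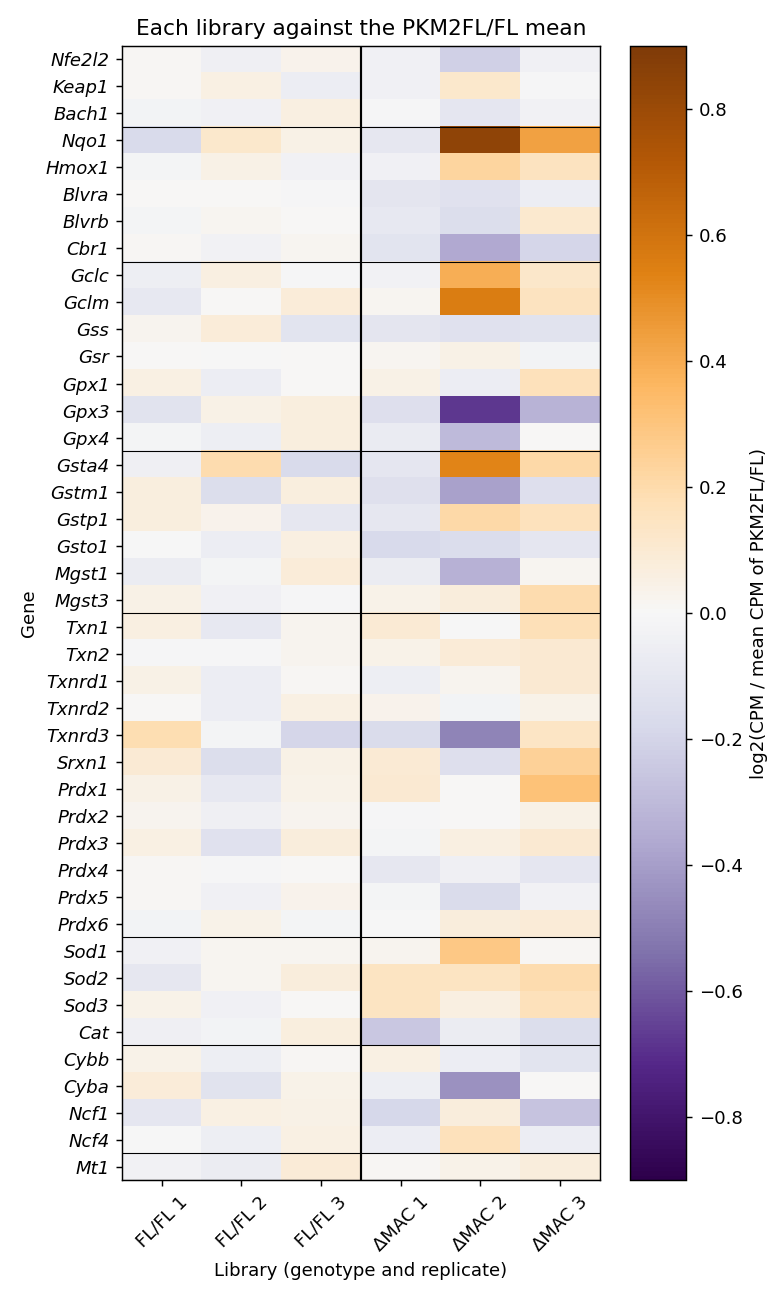
Colour gives log2 of the CPM of each of the tested genes in each library over the PKM2FL/FL mean, with libraries as columns and genes as rows. The column of PKM2ΔMAC replicate 2 holds the strongest colours in both directions, such as those of Nqo1 (6.50 CPM) and Gpx3 (139 CPM).

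The genes of the list also differed among the PKM2ΔMAC libraries themselves. PKM2ΔMAC replicate 2 was the library farthest from the mean of the 6 for 21 of the 42 genes (50%), against 30.9% of all genes tested. PKM2ΔMAC replicate 3 was farthest for 11 (26.2%), against 18.8% of all genes tested. Replicate 2 was the highest library for 11 genes, among them Nqo1, Hmox1, Gclc, Gclm and Sod1, and the lowest for 13, among them Nfe2l2, Cbr1, Gpx3, Gpx4, Gstm1, Mgst1 and Cyba. The highest and lowest places were held 13 and 5 times by PKM2ΔMAC replicate 3, and 1 and 3 times by PKM2ΔMAC replicate 1. In PKM2FL/FL they were held 4 and 6 times by replicate 1, 1 and 12 times by replicate 2, and 12 and 3 times by replicate 3. The median coefficient of variation of the 42 genes was 4.03% in PKM2FL/FL and 6.46% in PKM2ΔMAC, and it was the larger in PKM2ΔMAC for 34 genes. It is not given here over all genes, so it cannot be read as particular to the list. Leaving PKM2ΔMAC replicate 2 out gave 0 calls among the 42, with 14 genes without overlap, where 31% of all genes tested had none in that setting.

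Of 101 further genes of the same systems, 95 were in the tables and 90 were tested. At an adjusted p under 0.05 edgeR called 0 in either direction, against 0.412% of all genes tested. At an unadjusted p under 0.05 there were 9 (10%, 4 higher and 5 lower), against 9.83% of all genes, and the median log2 fold change was 0.0055. Msrb1, a selenium-dependent methionine sulfoxide reductase, was at 154, 148 and 160 CPM in PKM2FL/FL and at 136, 126 and 132 CPM in PKM2ΔMAC libraries. All 3 PKM2ΔMAC values were lower (log2 fold change -0.23 ± 0.046, adjusted p = 0.12), DESeq2 called the gene (adjusted p = 0.0177), and edgeR called it without PKM2ΔMAC replicate 2 (adjusted p = 0.0430). Glrx, the cytosolic glutaredoxin, was at 39.6, 45.7 and 37.1 CPM against 51.3, 52.0 and 55.9 CPM. All 3 PKM2ΔMAC values were higher (log2 fold change 0.38 ± 0.077, adjusted p = 0.132), and DESeq2 called it as well (adjusted p = 0.00754).

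Selenop, which encodes a secreted selenium carrier, was at 2492, 2691 and 2622 CPM against 2269, 1755 and 2364 CPM (log2 fold change -0.29, adjusted p = 0.451). Its genotypes did not overlap, PKM2ΔMAC replicate 2 was again the lowest, and without that library the log2 fold change was -0.17. Aox1, Adh7 and Gstm4, at low levels of about 1 to 7 CPM, had log2 fold changes of 0.41, 0.37 and -0.22 with adjusted p between 0.583 and 0.784. Rac2, the GTPase of the oxidase, and Cybc1, a chaperone of CYBB, had log2 fold changes of 0.12 and -0.10 and were not called.

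Mt3, another metallothionein gene 18517 bases before Mt2, had 0 counts in each PKM2FL/FL library and 23, 25 and 6 counts in PKM2ΔMAC libraries. Against 3 counts per library its PKM2ΔMAC mean of 0.337 CPM was at least 5.84-fold higher. The PKM2ΔMAC libraries were at 0.433, 0.455 and 0.121 CPM, so this bound is one for the mean and not for each mouse. It did not pass the count filter. DESeq2 called it (adjusted p = 0.00142), as did edgeR with no filter (adjusted p = 0.0366), and in the other alternatives that tested it the adjusted p was between 0.0632 and 0.433. Its level was far below that of Mt1 in every library.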

How the data were processed

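RNA of BMDMs was sequenced from total RNA libraries (SMARTER RNA-seq kit), 1 per mouse. The authors deposited raw read counts and TPM values per gene symbol. Submitters' processing notes name FastQC 0.12.1, Trim Galore 0.6.10, HISAT2 2.2.1, SAMtools 1.19.2, Subread 2.0.6 and mm10. The annotation, strand setting and multi-mapping rule are not given in the sources used here.

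Counts were fitted with edgeR 4.0.16 (R 4.3.3, limma 3.58.1): filterByExpr, TMM scaling (factors 0.980 to 1.04), a robust quasi-likelihood fit with genotype alone and Benjamini-Hochberg adjustment over 16516 genes, with a call at an adjusted p under 0.05. CPM values carry the TMM factors, and intervals are the model's 95% intervals. SD is over the 3 mice of a genotype, and SE is the model's for the log2 fold change. Exact permutation tests used log2(CPM + 0.1). Depths are given in the report, and the shares of counting error and of the spread between mice in the precision were not tested. The model's intervals include the spread between mice, and the floor of 3 counts covers counting error only. Fits were also tried on simulated counts, and no outcome of that trial is given or used here. The columns were matched to libraries by genotype and number, with 0 unmatched.

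Members and lists were chosen with earlier results of these data known. All 43 were accounted for, with fold change, SE, interval and adjusted p for the 12 with the smallest unadjusted p and for Nfe2l2, Keap1, Hmox1, the oxidase subunits and Mt1. Of further pathway genes with at least 1 CPM, the 3 with the largest positive (Aox1, Glrx, Adh7) and the 3 with the largest negative fold change (Selenop, Msrb1, Gstm4) were named. Mt3, Rac2 and Cybc1 were singled out after their values were seen. Positions are from GENCODE M21 (GRCm38), promoters from RefSeq (GRCm38.p6). Proteins were not used here. Alternatives were DESeq2 1.42.0, other normalizations and filters, down-sampling, non-robust estimation, a replicate block, each library left out, and limma-trend on log2(TPM + 1) or log2(TPM + 0.1), a scale that understates the change of low genes. Same-numbered mice are not stated to share a litter or day.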

Additional observations from a re-analysis of the deposited data

How the results depend on the processing

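No gene of the list was called under any of the 18 alternatives, and 30 of the 42 kept their direction in all of them. All genes called numbered 68. They were 289 with DESeq2, 120 with no filter, 41, 34 and 36 with limma-trend on TPM (pseudocount 1, pseudocount 0.1, and no filter), 33 with Lyz2 left out of the TPM, a setting chosen after seeing the data, and between 22 and 299 when 1 library was left out, the highest without PKM2ΔMAC replicate 2 and the lowest without PKM2FL/FL replicate 3. Of the other pathway genes 3 were called by DESeq2, 1 with no filter and between 0 and 1 with 1 library left out. Genes of the list without overlap numbered between 10 and 19 with 1 library left out, with the 19 (of 42) found without PKM2ΔMAC replicate 1, where 26.2% of all genes had no overlap. Over the 6 such settings the share of all genes was between 25% and 31%. Their median log2 fold change of 0.018 became 0.087, 0.089 and 0.087 in the TPM settings, in which the median of all genes moved to 0.063, 0.067 and 0.046. Without Lyz2 the medians were 0.018 and -0.0023. In the same TPM settings Bach1 (0.027), Blvrb (0.029) and Cybb (0.031) changed sign. With 1 library left out, values ran from -0.025 to 0.053 for Keap1, -0.12 to 0.014 for Blvrb, -0.0033 to 0.031 for Gsr, -0.0074 to 0.11 for Gpx1, -0.013 to 0.064 for Txnrd1, -0.013 to 0.044 for Txnrd2, -0.021 to 0.17 for Srxn1, -0.0092 to 0.027 for Prdx2, -0.011 to 0.086 for Prdx3 and -0.058 to 0.057 for Ncf4. The cause was not tested.

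Deviations of same-numbered mice correlated at 0.156, 0.254 and 0.0395 over 13077 genes. Each PKM2FL/FL library correlated best with its own number, as did PKM2ΔMAC replicates 1 and 2. PKM2ΔMAC replicate 3 correlated best with PKM2FL/FL replicate 1 (0.136). What same-numbered samples share besides the number is not stated and was not tested. With the replicate block 82 genes were called, 0 of them in the list, 12 of the 42 and 11% of all genes had an unadjusted p under 0.05, and the lowest adjusted p was 0.0649 (Gstm1). Mt2, Mt3 and Gsta4 had few counts. What limits the precision of each gene, counting error or the spread between 3 mice, was not tested.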
